A study of Mus musculus with 4 samples.

Results

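Polycomb repressive complex 2 (PRC2) genes were followed in mouse embryonic stem cells (ESCs) profiled by droplet single-cell RNA sequencing. The 8 genes were taken by symbol from the 32285 genes of the count matrix: Ezh1 and Ezh2, Eed, Suz12, Jarid2, Mtf2, Phf19 and Epop. All 8 symbols were found, each on a single row. The study grew the male E14tg2a.4 ESC line as wild type (WT) and as Srrm2 hKO, a line of the same background whose gene-trap cassette (SIGTR line CG0630) truncates 1 Srrm2 allele, and sampled 2 cultures of each. The hKO cells are a single gene-trap line, so effects of the trap and of that line cannot be told apart. Both lines were kept on gelatin with LIF and moved to serum-free ESGRO medium with LIF before collection, for a time on which the labels and the methods differ. SRRM2 is a splicing factor of nuclear speckles.

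The 4 libraries were joined into 1 matrix in which each barcode ends in a library number, 1 to 4. No label ties a number to a sample, so the libraries are given by number, none is called WT or Srrm2 hKO, and the comparison of the genotypes was not made. Libraries of unknown genotype were not taken as replicates of a group, so no test was run and no p-value is given. A library level mixes how many cells use a gene with how much each holds, and these cannot be told apart in it. Levels are UMIs of a gene per 1000000 UMIs (CPM) of the kept cells, with a 95% interval that covers counting error only. Kept cells numbered 8118, 8514, 7893 and 7464 in libraries 1 to 4, with 166839268 to 200180473 UMIs and medians of 4066 to 4601 genes per cell. Srrm2, the targeted gene, stood at 387, 533, 238 and 356 CPM, and these values name no genotype. All 8 ESC markers looked up were present in every library, with Pou5f1 at 663 to 847 CPM and Nanog at 61.9 to 154 CPM. Of 31883 barcode sequences among kept cells, 105 (0.329%) occurred in more than 1 library.

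PRC2 places methyl groups on lysine residues of the histone H3 tail and keeps developmental genes silent. EZH2 or its close relative EZH1 carries the catalytic activity. EED and SUZ12 are the core subunits that hold the enzyme together, and EED binds its product. Accessory proteins divide the complex into forms: MTF2, PHF19 and the elongin-binding EPOP belong to the PRC2.1 form, and JARID2 belongs to the PRC2.2 form. In ESCs PRC2 sits at the CpG-rich promoters of lineage regulators, and cells that lack it can self-renew but differentiate poorly.

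The methyltransferase and core genes are often described as targets of E2F factors, which act at the entry to S phase. For that reason the RefSeq promoters of the members (250 bases before to 50 bases after the start, build GRCm38.p6) were searched on both strands for the letters TTTGGCGC, TTTCCCGC, TTTCGCGC and TTTGCCGC. Of the 8 members, 7 had a promoter entry, and 3 of these held a match. The matches are printed 5′ to 3′ along the strand of the gene, with the matching letters in capitals. The Ezh2 window is chr6:47595009-47595038 (minus strand) and its match begins at position 4 after the start. The Suz12 window is chr11:79992876-79992905 (plus strand) and its match begins at -219. The Phf19 window is chr2:34914166-34914195 (minus strand), its match begins at -208, and the letters lie on the opposite strand.
Ezh2: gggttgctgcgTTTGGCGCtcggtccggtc
Suz12: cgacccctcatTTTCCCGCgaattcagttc
Phf19: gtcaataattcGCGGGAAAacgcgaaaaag
Among all genes with an entry, 704 of 27025 (2.61%) held a match, and among all promoter entries 744 of 32851 (2.26%) did. The entries of Ezh1, Eed, Jarid2 and Mtf2 held none of these letters in this window. A match describes the letters and is not a measured binding site.

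Ezh2 was the most even of the 8 genes across libraries, and Ezh1 the least even. Ezh2, the main methyltransferase gene of dividing cells, stood at 280, 275, 250 and 246 CPM in libraries 1 to 4. Its highest library exceeded its lowest by 1.14-fold (95% interval 1.124 to 1.154). Of all genes tested, 90.5% had a wider range than Ezh2. Ezh1, the relative that prevails in resting cells, stood at 8.74, 12.3, 6.65 and 10.5 CPM, from 1146 to 2456 counts per library. Libraries 2 and 4 lay above libraries 1 and 3, and the range was 1.85-fold (1.72 to 1.98). The ratio of Ezh2 to Ezh1 UMIs was therefore 32.1, 22.4, 37.6 and 23.3, a spread of 1.67-fold between libraries 3 and 2. Without library 3 that spread was 1.43-fold. The ratio compares the same pair of genes between libraries and is not a ratio of molecules, because transcripts of different 3′ ends are not captured equally.

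The core genes Eed and Suz12 did not follow each other across libraries. Eed, which reads the methylated histone tail, stood at 193, 187, 176 and 139 CPM, and only library 4 lay far below the others. Suz12, the scaffold of the core, stood at 132, 203, 125 and 170 CPM. For Suz12 libraries 2 and 4 were the high ones, and its range was 1.62-fold (1.598 to 1.65) against 1.39-fold (1.37 to 1.41) for Eed. The ratio of Suz12 to Eed UMIs was 0.683, 1.08, 0.711 and 1.22, which is a 1.79-fold spread between libraries 4 and 1.

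The accessory genes of both forms also differed in order. Jarid2, which helps to recruit PRC2.2, stood at 202, 303, 253 and 303 CPM, with library 1 the lowest and libraries 2 and 4 indistinguishable (1.00-fold, 0.989 to 1.01). Mtf2, which binds unmethylated CpG-rich DNA, stood at 399, 361, 344 and 274 CPM, with library 1 the highest and library 4 the lowest. These genes were in opposite order at the ends: the Jarid2 range of 1.503-fold (1.48 to 1.52) ran from library 1 up to library 4 and the Mtf2 range of 1.46-fold (1.44 to 1.47) from library 4 up to library 1. Epop, which links PRC2.1 to elongin, stood at 79.0, 129, 89.8 and 88.8 CPM and was high in library 2 alone, libraries 3 and 4 being indistinguishable (0.989-fold, 0.967 to 1.01), with a range of 1.63-fold (1.597 to 1.67). Phf19, a relative of Mtf2, was scarce, at 3.82, 2.62, 3.57 and 2.71 CPM from 472 to 638 counts, and its range of 1.46-fold carried an interval of 1.30 to 1.64. For Phf19 the pairs of libraries 1 and 3 and of libraries 2 and 4 could not be told apart at this depth. Over the 8 genes, 4 of 48 pairs of libraries had an interval that held 1. The balance of accessory transcripts shifted with these orders: UMIs of Mtf2, Phf19, Phf1 and Epop together over those of Jarid2 and Aebp2 were 2.07, 1.43, 1.49 and 1.04, a 1.98-fold spread between libraries 1 and 4.

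**Figure D1:**
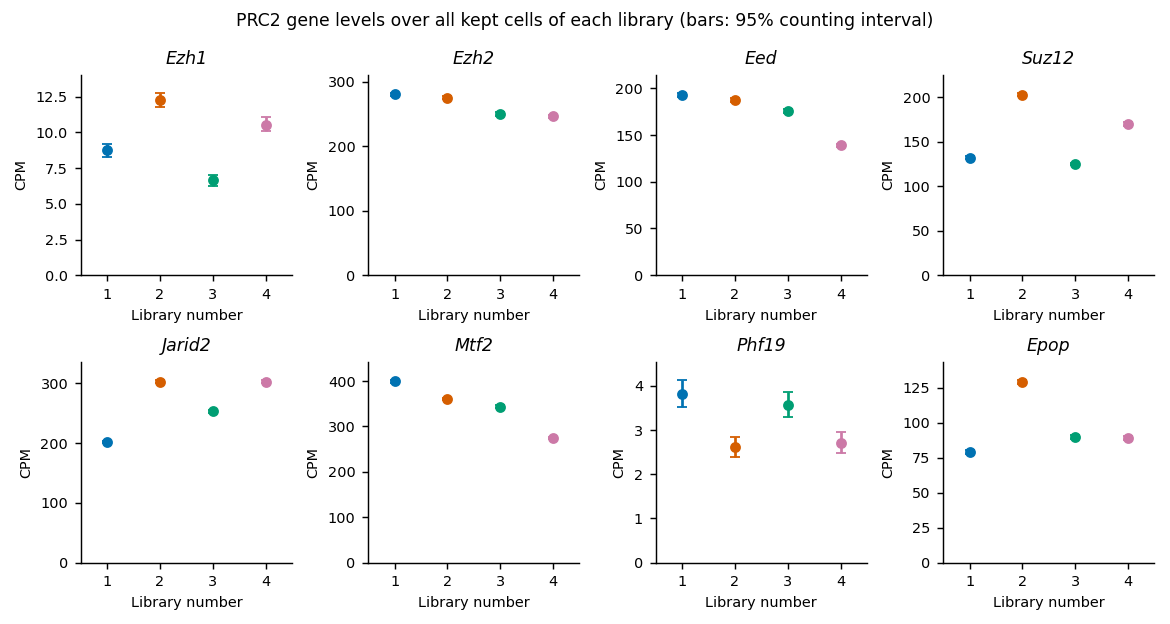
Levels of the 8 PRC2 genes (CPM, y axis from 0) over all kept cells of libraries 1 to 4 (x axis), with 95% counting intervals as bars. Ezh2 is nearly level between 246 and 280 CPM, Ezh1 and Suz12 are high in libraries 2 and 4, Mtf2 and Eed are lowest in library 4, and Epop is highest in library 2.

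A range of at least 1.5-fold between the highest and the lowest library was reached by 4 of the 8 members, Ezh1, Suz12, Jarid2 and Epop. Across all 11099 genes with at least 200 counts in every library, 41% reached it. The members' median range was 1.48-fold and that of all genes 1.42-fold, so as a list the members were close to the background of these libraries. Jarid2 lay at the limit itself, and Mtf2 and Phf19 just below it, so the scaling decided which members passed. With median-of-ratios size factors Jarid2 (1.37-fold) and Epop (1.496-fold) fell below the limit and Eed (1.52-fold), Mtf2 (1.59-fold) and Phf19 (1.59-fold) passed. With mitochondrial and ribosomal protein genes out of the totals Jarid2 (1.42-fold) fell below it and Mtf2 (1.54-fold) and Phf19 (1.56-fold) passed. Ezh1 and Suz12 passed under both scalings. Leaving out library 1 removed Jarid2 and Epop from this count, leaving out library 2 removed Suz12 and Epop, and leaving out library 3 removed Ezh1. The other genes of the complex gave 2 of 7 past the limit, Lcor at 1.52-fold and Aebp2 at 1.51-fold, and Eloc followed at 1.48-fold. The genes of PRC1, the partner complex that ubiquitinates histone H2A, gave 6 of 19, and Yaf2 at 3.34-fold, Cbx2 at 2.69-fold and Phc2 at 1.89-fold were the widest. Of the H3K27 demethylase genes Kdm6b passed at 1.59-fold and Kdm6a did not, at 1.26-fold. Of the 3 genes of the BAP1 deubiquitinase list Bap1 (1.69-fold) and Asxl1 (1.59-fold) passed.

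The libraries held different mixtures of cell states, so each member was read again inside single states. A cell was called keratin-high when Krt8 and Krt18 together reached 500 CPM. The other cells were divided by UMIs of 10 naive markers (such as Nanog, Klf4, Esrrb and Zfp42) and 8 formative markers (such as Otx2, Fgf5, Pou3f1 and Dnmt3b): naive-marked where the naive sum was at least 2 times the formative sum, formative-marked in the reverse case, and mixed in between. No PRC2 gene was used for these calls. Naive-marked cells made up 95.04%, 70.9%, 75.3% and 35.7% of libraries 1 to 4, and formative-marked cells 2.39%, 15.9%, 7.98% and 42.7%. Mixed cells numbered 3247 and keratin-high cells 1017 in all. Of all kept cells 2548 lay within a factor of 1.25 of a ratio limit. The classes are ranges of a marker score and not separate cell types.

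Inside naive-marked cells the differences between libraries in Eed and Mtf2 nearly disappeared, while those in Ezh1, Suz12, Jarid2 and Epop remained. Mtf2 stood at 416, 402, 411 and 382 CPM in naive-marked cells of libraries 1 to 4, a range of 1.09-fold (1.07 to 1.11) in place of 1.46-fold. Eed stood at 200.3, 207, 207 and 190 CPM, a range of 1.09-fold (1.07 to 1.11) in place of 1.39-fold. Ezh2 narrowed to 1.05-fold (1.03 to 1.07). Suz12 stood at 134, 214, 138 and 208 CPM, a range of 1.6003-fold (1.57 to 1.63). Ezh1 stood at 8.90, 12.9, 7.26 and 13.0 CPM, a range of 1.79-fold (1.62 to 1.97). For both genes libraries 2 and 4 lay close together and above libraries 1 and 3. Jarid2, with 203, 300, 273 and 333 CPM, widened to 1.65-fold (1.62 to 1.67). Epop, with 80.3, 148, 101 and 123 CPM, widened to 1.84-fold (1.80 to 1.88). Phf19 gave 1.39-fold (1.18 to 1.62). In this state 4 of the 8 members had a range of at least 1.5-fold, against 30.6% of 9677 genes tested. The members' median range was 1.49-fold and that of all genes 1.33-fold. Without library 1 the count was 2, Ezh1 and Suz12, and the share of all genes without that library is not given here. With median-of-ratios size factors, a scaling added after seeing the data, Mtf2 had a range of 1.17-fold and Eed of 1.14-fold in this state, and Suz12 fell below the limit at 1.46-fold.

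**Figure D2:**
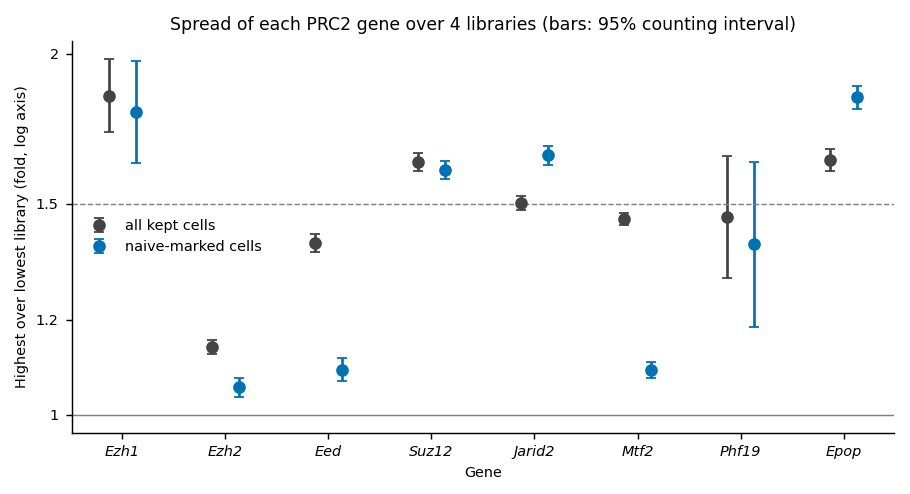
Fold between the highest and the lowest of 4 libraries (y axis, log scale) for each PRC2 gene over all kept cells (grey) and over naive-marked cells (blue), with 95% counting intervals; the dashed line marks 1.5-fold. Eed and Mtf2 drop from 1.39-fold and 1.46-fold to 1.09-fold in naive-marked cells, whereas Ezh1, Suz12, Jarid2 and Epop stay above 1.5-fold.

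Between states of the same library, Mtf2 and Eed were the members at least 1.5-fold below their naive-marked level in the formative-marked cells of every library. Mtf2 had 122, 192, 164 and 181 CPM in formative-marked cells of libraries 1 to 4, which is 0.293, 0.477, 0.398 and 0.475 of its naive-marked level. Eed had 69.2, 110, 91.9 and 94.5 CPM, which is 0.345, 0.530, 0.445 and 0.497 of its naive-marked level. Their levels in the 4 sets of naive-marked cells and the 4 sets of formative-marked cells did not overlap, and those of Epop and Ezh2 did not either, a pattern that 12.8% of all genes tested had in this direction. Mtf2 and Eed were thus 2 of 8 members past the rule, and no member was at least 1.5-fold higher in every library. Of 10750 genes tested, 6.83% were lower by this rule and 9.72% were higher. Every library left out in turn kept Eed and Mtf2 in the count, and without library 1 Epop was added, against 7.05% of genes lower. The minimum of 200 counts is over both classes of a library together, and Ezh1 and Phf19 had fewer than that in the formative-marked cells of at least 1 library. With 200 counts asked of each class, a filter added after seeing the data, 6 members were tested and the same 2 were lower, against 1.87% of 3208 genes.

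The other members were past that limit in some libraries or in none. Epop stood at 0.697, 0.442, 0.619 and 0.493 of its naive-marked level, and only the fold of library 1 kept it out of the count. Its formative-marked levels of 56.0, 65.2, 62.5 and 60.8 CPM were nearly the same in all libraries, while its naive-marked levels ranged from 80.3 to 148 CPM. Phf19 stood at 0.906, 0.432, 0.707 and 0.317, with an interval of 0.514 to 1.48 in library 1. Suz12 was at 0.691 to 0.760 and Ezh1 at 0.677 to 0.751 of the naive-marked level. Ezh2 was at 0.801 to 0.883 and Jarid2 at 0.813 to 0.949. The members' median log2 difference was -0.40, -0.71, -0.53 and -0.79 in libraries 1 to 4, beside 0.15, 0.10, 0.15 and 0.09 for all genes tested. With the median gene of each library set to a fold of 1, members lower in every library numbered 3, Epop being added, against 8.47% of all genes, and the share of higher genes among all calls was 46.7% in place of 58.7%. Formative-marked cells had median mitochondrial shares of 3.35% to 3.78% against 3.77% to 5.46% in naive-marked cells, and medians of 21296 to 21928 against 18173 to 21750 UMIs. The part of these differences in the result was not tested.

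Genes of the neighbouring complexes were read by the same rule. None of 6 other PRC2 genes tested was at least 1.5-fold different in every library, and their median log2 difference lay between -0.02 and 0.10. Of 19 PRC1 genes 3 were higher in formative-marked cells, Phc2, Kdm2b and Yaf2, and none was lower. Of the demethylase genes Kdm6b was higher in every library and Kdm6a was not called. Of the 5 ESC markers tested that did not define a state, Sox2 and Dppa5a were lower in every library as well. Sox2 stood at 78.0, 172, 104.7 and 166 CPM in formative-marked cells against 439.7, 466, 381 and 464 CPM in naive-marked cells. Pou5f1 stood at 862, 854, 685 and 801 CPM against 849.8, 776, 711 and 748 CPM. Primed or streak markers (T, Eomes, Mixl1, Mesp1 and Wnt3) summed to 9.91, 12.3, 11.2 and 7.75 CPM against 1.76, 2.68, 2.23 and 2.66 CPM. Primitive endoderm markers summed to 1.94, 3.23, 6.89 and 4.98 CPM against 0.916, 0.692, 1.44 and 1.03 CPM. Dab2 gave 8 of 9, 80 of 99, 78 of 102 and 304 of 359 of the primitive endoderm counts in formative-marked cells. Fibroblast markers summed higher in every library too. Thy1 gave 27 of 30, 273 of 293, 52 of 187 and 567 of 623 of their formative-marked counts. In library 3 Col1a1 gave 62 and Col1a2 68. Trophectoderm markers summed lower in every library. Tfap2c, the only one tested, was called lower and gave 7958 of 8424, 8316 of 8528, 5111 of 5297 and 3056 of 3156 naive-marked counts. It had 10, 119, 53 and 230 formative-marked counts, so in libraries 1 to 3 it met the minimum through the naive-marked cells alone. Cdx2 and Krt7, with too few counts for the rule, were higher in libraries 2 to 4 and lower in library 1. Gata3, also too scarce, was higher in libraries 1, 3 and 4 and lower in library 2. The part of these marker differences in the members' values was not tested.

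A finer division of the cells outside the keratin-high class gave the shape of these differences. Cells were put in bins of their naive to formative UMI ratio, doubling from below 0.125 to 16 and above, and bins of at least 100 cells were read in each library. Mtf2 in library 2 stood at 158, 203, 248, 291, 370 and 399 CPM from the lowest bin to the bin of 2 to 4, and then at 397 to 408 CPM in the remaining bins. Mtf2 in library 4 took nearly the same path, with 161, 185, 219, 267, 344 and 385 CPM, followed by 373 to 385 CPM. In libraries 2 and 4 Mtf2 was thus graded across the formative and mixed cells and nearly level across the naive-marked ones. In library 1 it was lower in the first naive-marked bin, with 347 CPM in the bin of 2 to 4 and 416 CPM in the bin of 4 to 8. Eed had the same shape, from 103 CPM in the lowest bin of library 2 to 212 CPM in the bin of 2 to 4, and from 87.8 to 192 CPM in library 4. Library 3 reached the plateau later, with Mtf2 at 143 CPM in its lowest bin, 284 CPM in the bin of 1 to 2, 356 CPM in the bin of 2 to 4 and 412 CPM in the bin of 4 to 8.

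Jarid2 took another path, with its highest level in the middle of the range. In library 4 it stood at 251 CPM in the lowest bin, 361 CPM in the bin of 1 to 2 and 299 CPM in the highest bin. In library 2 the same bins gave 261, 349 and 270 CPM. In library 3 the highest value, 302 CPM, was in the bin of 2 to 4, between 193 CPM in the lowest and 243 CPM in the highest bin. Library 1 had only the 4 bins from 2 upwards, and its Jarid2 levels there went from 225 down to 193 CPM. Suz12 was higher toward the naive end, from 156 CPM in the lowest bin to 218 CPM in the highest in library 2, from 144 to 199 CPM in library 4 and from 105 to 139.9 CPM in library 3. In every shared bin libraries 2 and 4 lay above libraries 1 and 3.

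**Figure D3:**
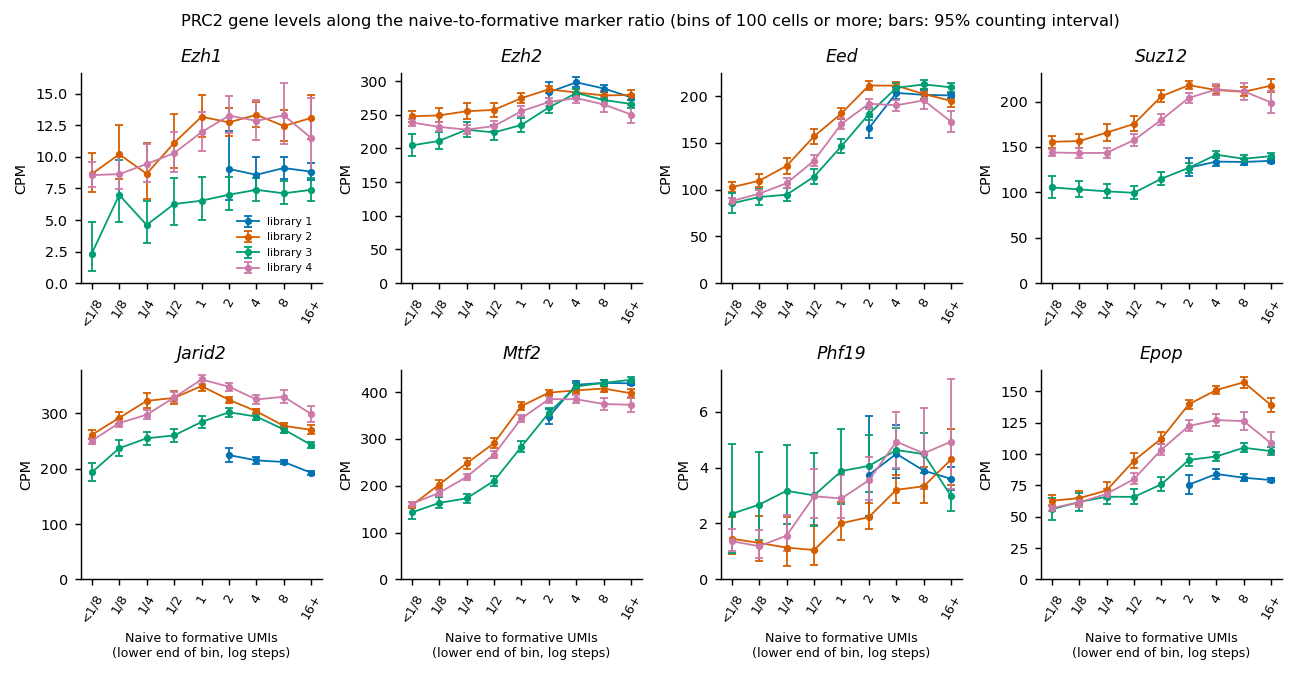
Levels of the 8 PRC2 genes (CPM, y axis from 0) in bins of the naive to formative UMI ratio (x axis, lower end of each bin, steps of 2-fold) in each library (colours), with 95% counting intervals. Mtf2 and Eed climb to a plateau from the bin of 2 or 4 upwards, Jarid2 is highest near a ratio of 1 to 4, and Suz12 of libraries 2 and 4 stays above that of libraries 1 and 3.

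In keratin-high cells the point value of every member was below that of naive-marked cells of the same library. How many of all genes were below in every library read, at any fold, was not counted. The naive-marked cells are the same reference as in the comparison above, so the folds of both comparisons share it. Library 2 had only 32 such cells and was left out, and library 1 had 61. Mtf2 had 116, 136 and 136 CPM in keratin-high cells of libraries 1, 3 and 4, which is 0.280, 0.330 and 0.355 of its naive-marked level. Eed was at 0.364, 0.397 and 0.464 of its naive-marked level. In libraries 3 and 4 Mtf2 was thus also below its formative-marked levels of 164 and 181 CPM, and in library 1 it was close to the 122 CPM there. Jarid2, at 0.813 to 0.949 in formative-marked cells, stood at 0.718, 0.448 and 0.459, with levels of 145, 123 and 153 CPM. Suz12 was at 0.697, 0.538 and 0.550 and Ezh2 at 0.662, 0.568 and 0.680. Epop was at 0.660, 0.554 and 0.526. Ezh1 was at 0.177, 0.585 and 0.352, the first of these from 3 counts with an interval of 0.0364 to 0.518. Phf19 was at 0.689, 0.353 and 0.534, with an interval of 0.223 to 1.62 in library 1.

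By the rule of 1.5-fold in each of these 3 libraries, 4 of 8 members were lower, Ezh1, Eed, Mtf2 and Epop, and none was higher. Of 9986 genes tested 10.3% were lower and 15.2% were higher. Most of these calls rest on few keratin-high counts: Ezh1 had 3, 81 and 32 counts in the keratin-high cells of libraries 1, 3 and 4 against 1389, 885 and 766 in the naive-marked cells, so it met the minimum through the naive-marked cells alone. In library 1 Eed had 139 and Epop 101 keratin-high counts. With 200 counts asked of each class, 3 members could be tested, Ezh2, Jarid2 and Mtf2, and Mtf2 alone was lower, against 3.56% of 1490 genes. The count also moved with the libraries and the scaling. Without library 1 it was 7 of 8, all but Ezh2, against 11.8% of genes lower. With a keratin limit of 200 CPM library 2 had enough cells to be read, and the count over 4 libraries was 2, Eed and Mtf2, against 7.26% of genes. Over libraries 1, 3 and 4 the lower limit gave 3, Ezh1 being added, against 8.11%. With mitochondrial and ribosomal protein genes left out of the totals all 8 members were lower, against 12.3% of genes. With the median gene at a fold of 1 there were 6, against 11.2%. Phf19 is among the 7, the 8 and the 6. It had 5, 27 and 16 keratin-high counts in libraries 1, 3 and 4, so it too met the minimum through the naive-marked cells alone. Under the lower keratin limit Ezh1 in library 1 stood at 0.544 in place of 0.177. The S-phase list summed to 1449, 1179 and 1306 CPM in the keratin-high cells and to 1667, 1646 and 1634 CPM in the naive-marked cells of libraries 1, 3 and 4, and the G2/M list to 2811, 2248 and 2636 against 3175, 3111 and 3084 CPM. ESC markers were lower in the keratin-high cells too. The 8 markers summed to 1885, 1902 and 1942 CPM there against 8171, 7613 and 6522 CPM in the naive-marked cells, a sum that holds some naive markers. Of the 5 markers tested that did not define a state, Sox2 and Dppa5a were called lower, and Pou5f1 stood at 548, 332 and 562 CPM against 849.8, 711 and 748 CPM. Their median log2 difference was -0.63, -1.10 and -0.61, beside -0.60, -1.03 and -1.02 for the members. Median mitochondrial shares were 3.78%, 3.32% and 2.94% in the keratin-high cells against 5.46%, 4.73% and 3.77% in the naive-marked cells, and median UMIs 26919, 25551 and 23621 against 18173, 18646 and 20995. The part of these differences in the result was not tested.

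Developmental regulators known as Polycomb targets were rare in these cells. The 36 genes of the list summed to 30.3, 33.6, 68.0 and 35.8 CPM in libraries 1 to 4, and few of them had at least 200 counts in every library. In keratin-high cells the sum was 57.7, 239 and 98.3 CPM in libraries 1, 3 and 4, above 30.6, 44.8 and 39.4 CPM in the naive-marked cells. A pair of genes made up much of these sums. Cdkn2a, an inhibitor of the cell cycle, stood at 44.1, 196 and 45.9 CPM in the keratin-high cells against 6.39, 15.9 and 11.4 CPM in the naive-marked cells. Pax6, a regulator of eye and neural development, stood at 1.05, 2.57 and 1.86 CPM against 18.5, 18.8 and 12.7 CPM. Without this pair the list summed to 12.6, 40.2 and 50.6 CPM against 5.69, 10.2 and 15.3 CPM. In formative-marked cells of libraries 1 to 4 the whole list summed to 13.6, 26.3, 53.8 and 26.7 CPM, below the naive-marked cells in libraries 1, 2 and 4 and above them in library 3. Pax6 was lower there in every library, at 1.51 to 3.60 CPM against 12.7 to 18.8 CPM. Without Cdkn2a and Pax6 the sum was 10.99, 16.8, 21.7 and 15.2 CPM against 5.69, 9.75, 10.2 and 15.3 CPM, above the naive-marked cells in libraries 1 to 3 and level with them in library 4. Of the 3 genes of the list that could be tested, Cdkn2a was higher and 2, Pax6 among them, were lower in the keratin-high cells of every library read. In library 1 Pax6 stood at 1.51 CPM of 4642003 UMIs in formative-marked cells and 1.05 CPM of 1906011 UMIs in keratin-high cells. These levels rest on few counts, and Pax6 met the minimum of 200 there through the naive-marked cells alone. Of 18 PRC1 genes 4 were higher in keratin-high cells, Pcgf3, Pcgf5, Phc2 and Yaf2, and 2 were lower, Phc1 and L3mbtl2. Kdm6b was again higher. Of other PRC2 genes Eloc was higher and of the deubiquitinase list Asxl2 was lower. Of the trophectoderm markers that could be tested Krt7 was higher and Tfap2c lower. In libraries 1, 3 and 4 Krt7 had 38, 1040 and 245 keratin-high counts against 452, 128 and 70 naive-marked counts. Tfap2c had 26, 230 and 75 against 7958, 5111 and 3056. Krt7 thus met the minimum of 200 through a single class in every library read, and Tfap2c did so in libraries 1 and 4. Gata3 had too few counts for the rule. It stood at 12.6, 14.5 and 15.3 CPM in libraries 1, 3 and 4 against 0.0705, 0.410 and 0.339 CPM. Cdx2 stood at 0, 0.892 and 4.29 CPM against 0.0128, 0.0656 and 0.0508 CPM, and Elf5 had 0 keratin-high counts. In keratin-high cells of libraries 1, 3 and 4 primitive endoderm markers summed to 6.82, 21.9 and 17.9 CPM. The naive-marked cells had 0.916, 1.44 and 1.03 CPM. Dab2 gave 12 of 13, 286 of 418 and 57 of 125 of these keratin-high counts. In library 4 Gata6 gave 27 and Sox17 25. Fibroblast markers summed to 27.8, 58.4 and 28.9 CPM against 1.48, 2.39 and 2.29 CPM, mostly from Col1a1 and Col1a2, with Lum at 0 counts in all 3 libraries. The part of these markers in the members' values was not tested.

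**Figure D4:**
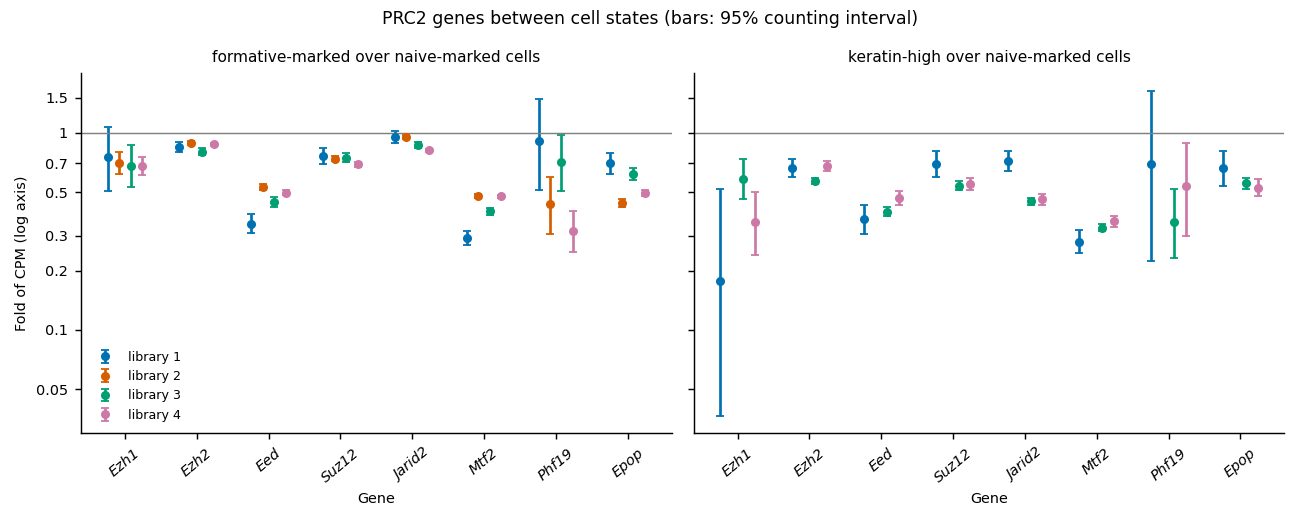
Fold of each PRC2 gene (y axis, log scale) in formative-marked cells (left) and keratin-high cells (right) over naive-marked cells of the same library (colours), with 95% counting intervals; library 2 is missing at the right. Mtf2 and Eed lie between 0.28 and 0.53 in both panels, and Jarid2 lies between 0.81 and 0.95 at the left and between 0.45 and 0.72 at the right.

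Cell cycle classes were compared last, first over all kept cells. S-high cells were the top 25% of a library by S-phase transcripts that were not in the top 25% by G2/M transcripts, G2/M-high cells the reverse, and cycle-low cells were below the median of both. No PRC2 gene is in either list. Ezh2 was at 1.18, 1.32, 1.504 and 1.36 times its cycle-low level in S-high cells of libraries 1 to 4, and only library 1 was under the limit of 1.2-fold used here. Suz12 was at 1.14, 1.16, 1.39 and 1.24 times that level. By the rule of 1.2-fold in every library 0 of 7 members tested were called, Phf19 having under 200 counts. Of 9240 genes tested 2.66% were higher and 0.823% were lower. Without library 1 the count was 1, Ezh2. Separately, with the top 10% of cells in place of the top 25%, it was also 1, Ezh2. The share of all genes called under each of these settings is not given here. The cycle-low class of library 3 held 24.5% keratin-high cells, against 1.27% to 7.84% in the other libraries, so the classes were read again among naive-marked cells.

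The cycle-low cells are the shared reference of both classes. Within naive-marked cells, Ezh2 and Suz12 had S-high folds with intervals above 1 in every library. The S-high point folds of Epop and Ezh1 were above 1 in every library too, at 1.06 to 1.22 and 1.006 to 1.23. Their intervals held 1 in library 1 for Epop and in every library for Ezh1. How many of all genes lay above 1 in every library was not counted. Of the members with enough counts for the rule, Mtf2 had the highest G2/M-high fold in libraries 1 and 3. In libraries 2 and 4 Jarid2 was level with Mtf2. Ezh2 stood at 1.16, 1.34, 1.30 and 1.32 times its cycle-low level in S-high cells, and at 1.32, 1.19, 1.34 and 1.16 times in G2/M-high cells. Suz12 stood at 1.14 to 1.22 times its cycle-low level in S-high cells and at 0.987 to 1.08 times in G2/M-high cells. Jarid2 showed the opposite, with 0.961 to 1.02 in S-high cells and 1.151, 1.33, 1.24 and 1.34 in G2/M-high cells. Mtf2 likewise stood at 0.986 to 1.06 in S-high cells. In G2/M-high cells Mtf2 stood at 554, 475, 525 and 451 CPM against 328, 355, 333 and 337 CPM in cycle-low cells, which is 1.69, 1.34, 1.58 and 1.34 times. The 4 G2/M-high values of Mtf2 lay above all 4 cycle-low values, and the share of all genes with this pattern was not counted. Eed, whose level ran with that of Mtf2 between states, stood at 0.982 to 1.07 in G2/M-high and 0.982 to 1.16 in S-high cells, so these genes parted along the cell cycle. Epop stood at 1.04 to 1.13 in G2/M-high cells.

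Phf19 was too scarce for the rule but had wide folds. In naive-marked G2/M-high cells it stood at 2.16 (1.598 to 2.95), 1.66 (1.198 to 2.34) and 2.64 (1.83 to 3.90) times its cycle-low level in libraries 1 to 3, and at 0.841 (0.581 to 1.23) in library 4. In S-high cells the values were 1.42, 1.62, 2.04 and 0.868. Library 4 thus stood apart, its cycle-low level of 5.003 CPM being above the 2.03 to 2.51 CPM of the other libraries. These levels rest on 99 to 290 counts over both classes of a library.

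In these naive-marked cells 1 of 7 members tested, Mtf2, was at least 1.2-fold higher in G2/M-high cells in every library and none was lower, against 5.39% and 0.551% of 7983 genes. Over all kept cells Mtf2 was likewise the only one of 8 members called, at 1.68, 1.33, 1.87 and 1.39 times, against 4.91% of 9616 genes higher and 0.998% lower. In S-high cells none of the 7 members was called among naive-marked cells, against 2.37% higher and 0.291% lower of 7209 genes. G2/M-high cells had medians of 22187 to 26489 UMIs against 16121 to 19818 in cycle-low cells of the whole libraries, and the part of depth in the folds was not tested. The limits cut a continuous score, and 7287 of 31989 cells lay within 10% of the S limit of their library.

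**Figure D5:**
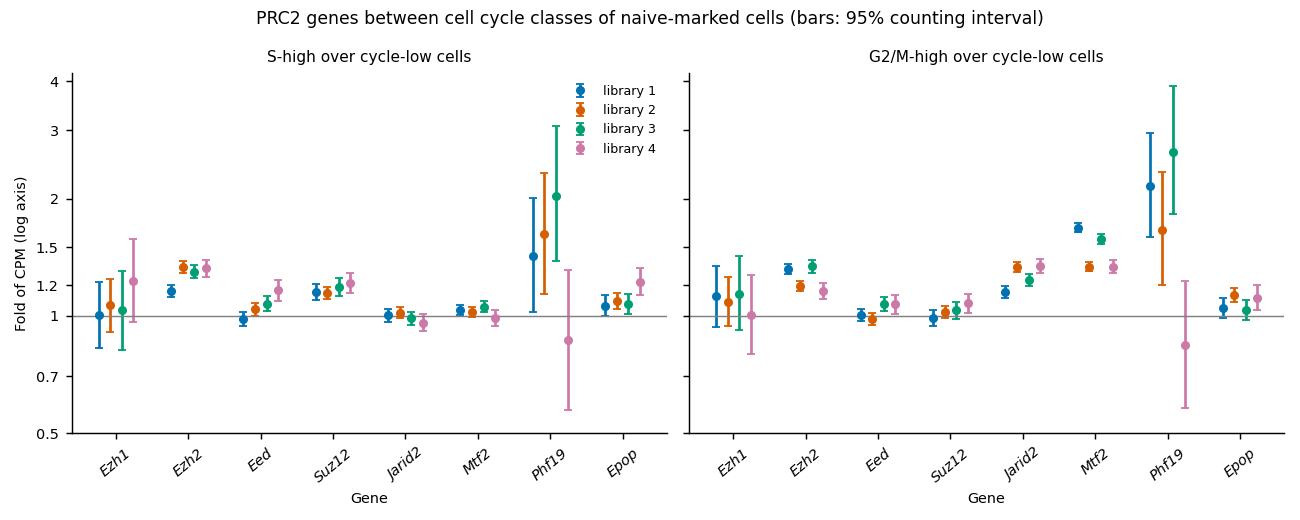
Fold of each PRC2 gene (y axis, log scale) in S-high cells (left) and G2/M-high cells (right) over cycle-low cells, all naive-marked, in each library (colours), with 95% counting intervals. Ezh2 is between 1.16 and 1.34 in every library of both panels, Mtf2 is near 1 at the left and between 1.34 and 1.69 at the right, and Phf19 is below 1 in library 4 only.

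The genes most like each member were sought over 14 units of library and state with at least 100 cells, among 5426 genes with a mean of at least 20 CPM. The measure was Pearson's r of log2(CPM + 1), given as a description: units of a library share its cells' culture and preparation, and the state calls share marker genes. Mtf2 and Eed were each other's nearest gene, with r of 0.993. Kat6b, a histone acetyltransferase gene, was second for both (0.991 with Eed and 0.989 with Mtf2), and the third were Fbxo15 for Eed (0.982) and the pluripotency factor gene Sox2 for Mtf2 (0.982). Suz12, the other core gene, was not near them: its r was 0.722 with Eed and 0.731 with Mtf2, and its nearest genes were Sbno1, Usp7 and Etaa1 (0.983 to 0.988). Ezh2 was nearest to Paics and Prps1, both of nucleotide synthesis, and to Parp1 (0.973 to 0.978). Jarid2 was nearest to Snx5, BC055324 and Dpy30 (0.963 to 0.976), Epop to Crlf3, Trip12 and Gfpt2 (0.946 to 0.959), and Ezh1 to Dnajc8, Rrn3 and Mri1 (0.945 to 0.957). Phf19 reached at most 0.808, with Bcat1, and its counts were the lowest of the 8 genes.

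All 8 genes are protein-coding and lie on 6 chromosomes of GRCm38 in the GENCODE M21 annotation. Ezh1 (101191115 to 101226463), Suz12 (79993106 to 80034123) and Epop (97627389 to 97629702) are on chromosome 11, Ezh2 (47530139 to 47595341) is on chromosome 6, Eed (89954654 to 89980983) on chromosome 7, Jarid2 (44729474 to 44921643) on chromosome 13, Mtf2 (108065674 to 108109004) on chromosome 5 and Phf19 (34893757 to 34914026) on chromosome 2. Between the libraries at the ends of a member's range, the median log2 difference of other genes on its chromosome was -0.18 to 0.15. The members' own differences were 0.19 to 0.88. The libraries were picked by each member's own values, so its difference is positive by that choice. These values therefore do not weigh a member against its chromosome. For Ezh2 the difference was 0.19, beside -0.18 for chromosome 6. Counted genes on the opposite strand overlap Eed (E230029C05Rik), Mtf2 (Tmed5) and Phf19 (Gm13448), and no counted gene overlaps a member on its own strand.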

How the data were processed

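The deposited matrix holds raw UMI counts per gene and barcode for 4 libraries of Chromium Single Cell 3′ v3 chemistry. The authors aligned reads to mm10 with Cell Ranger 6.1.2 (per the submitters' processing notes) and joined the libraries with its aggregation step, which evens read depth between libraries. The matrix held 41142 barcodes and 744302782 UMIs.

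The study's cell filter was applied per library: UMIs and detected genes at or above the mean minus 1 SD, and a mitochondrial share of at most 10%. It kept 31989 cells, 72.5% to 85.1% of each library. No doublet caller was run. Cells above 2 times their library's median UMIs (1615) were left out in an alternative. UMIs were summed per library and class, with exact 95% Poisson intervals for levels and exact conditional binomial intervals for folds. At these depths a count of 0 allows up to 0.0150 to 0.0180 CPM (3 counts). A gene was called past 1.5-fold (1.2-fold for the cell cycle) with at least 200 counts in each library, summed over both classes where classes were compared, and classes under 50 cells were not read. The call rules were tested on simulated data. The planned comparison of Srrm2 hKO with WT was not made because no library is tied to a sample. Classes within libraries were compared by description, with no test across libraries, since libraries of unknown genotype were not taken as replicates of a group. The labels number the replicates without saying that cultures share a number.

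The members, gene lists, classes and comparisons were chosen with earlier results of these data known. The text names all members, the 3 genes of each other list with the widest range between libraries, and the 3 genes most like each member. List genes named for the state comparisons were chosen after their values were seen, and 1 result of the lists is not reported here. In an S-high alternative the top 10% replaced the top 25%. The finer bins, the G2/M comparison and the scaling by the median gene were chosen after seeing the data. Chromosomes were matched by gene ID for 32158 of 32285 genes. Python 3.11.15, numpy 2.4.6, scipy 1.17.1, pandas 2.3.3 and matplotlib 3.10.9 were used.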

Additional observations from a re-analysis of the deposited data

How the results depend on the processing

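For Srrm2 hKO and WT, no paired analysis was possible because no library is tied to a labelled sample. Classes of cells were compared within each library as a description, and libraries of unknown genotype were not tested as replicates. Members with a library range of at least 1.5-fold numbered 4 of 8, against 4555 of 11099 genes. With other cells, weights or scalings they were 3 to 5 (the members counted changed), against 4399 to 4632 of 10899 to 11203 genes. At a limit of 1.2-fold they were 7, against 8960 of 11099 genes. With a library left out they were 2 to 4, against 3377 to 4032 of 11138 to 11416 genes. Within naive-marked cells the count of 4, against 2958 of 9677 genes, was 2 to 4 with a library left out. The gene counts with a library left out are not given here for this state. Members lower in formative-marked cells numbered 2 of 8, against 6.83% of 10750 genes lower. At 1.2-fold they were 5, against 3827 of 10750 genes higher or lower. They were 3 (Epop added) with mitochondrial and ribosomal protein genes out of the totals (7.61% of genes lower). With the median gene at a fold of 1 they were also 3 (8.47%). With a library left out they were 2 to 3, the 3 being without library 1 (7.05%). Members lower in keratin-high cells numbered 4 of 8, against 10.3% of 9986 genes lower. Without cells above 2 times the median UMIs they were 7 (12.1% of genes). This left library 1 with 40 keratin-high cells, too few to read. With 200 counts asked of each class 1 of 3 was lower (3.56%). With mitochondrial and ribosomal protein genes out of the totals they were 8 (12.3%), Phf19 on 5 to 27 keratin-high counts. At 1.2-fold they were 8, against 4597 of 9986 genes higher or lower. At 200 CPM of keratin, library 2 then being read, they were 2 (7.26%). With a library left out they were 4 to 7, the 7 being without library 1 (11.8%). Members called in S-high cells numbered 0 of 7 tested, against 2.66% of 9240 genes higher and 0.823% lower. With the top 10% they were 1, the gene count for this setting not being given here. With a library left out they were 0 to 1, against 376 to 638 genes. The Ezh2 to Ezh1 spread was 1.43 to 1.67 with a library left out. Counts over all genes followed the limits: with no minimum count they were 12651 for the library range, 10591 for the range in naive-marked cells, 4385 for formative-marked, 6529 for keratin-high and 1178 for S-high cells, at 1.2-fold 8960, 7087, 3827 and 4597 for the first 4 of these, with 200 counts in each class 295 for formative-marked and 291 for keratin-high cells, and for S-high cells 29 at 1.5-fold, 192 in naive-marked cells and 376 to 638 with a library left out. No member's fold changed direction where it was called, and of 424 member folds under alternatives 1 moved by over 1.5 times (Ezh1 in keratin-high cells of library 1). Phf19, with 472 to 638 counts per library, is limited by depth. The intervals cover counting error and not differences between cultures, and the states are marker gates.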
